A study of Mus musculus with 6 samples.

Results

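The cytosolic ribosomal protein genes were taken as every row of the deposited table whose symbol was Rpl or Rps followed by a number and optional paralog letters. This gave 81 of 24421 genes, 49 of the large and 32 of the small subunit. The libraries came from regulatory T cells (Tregs), the Foxp3-expressing CD4 T cells that restrain immune responses, purified from mouse spleen and lymph nodes. The study asked what follows in Tregs when SREBP2, the transcription factor that drives cholesterol synthesis, is lost. The 3 control libraries (Srebp2WT, replicates 1, 3 and 5) had the genotype Srebp2WT/WT-Foxp3YFPCRE+/+, and the 3 deleted libraries (Srebp2cKO, replicates 6, 7 and 8) had Srebp2FL/FL-Foxp3YFPCRE+/-. Both groups thus carried the YFP-Cre recombinase under Foxp3, as +/+ in the controls and as +/- in the deleted group, so the floxed alleles and the copies of Cre changed together and cannot be told apart. No agent was given per the labels, and age is not stated there. The labels do not tie libraries to separate animals, and a p-value here measures only how far these samples spread, which could be technical.

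The ribosome consists of a small subunit that reads the mRNA and a large subunit that joins amino acids, and each is built of rRNA and proteins that are needed in fixed proportion. Most mRNAs for these proteins begin with a C followed by a run of pyrimidines, the 5′ terminal oligopyrimidine (TOP) motif, through which mTOR signalling and LARP1 control their translation and stability. In T cells their abundance is known to shift with activation and growth.

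The TOP letters could be looked at directly in RefSeq (GRCm38.p6), which held a window around the start for 61 of the 81 genes. A run of at least 5 letters that were all C or T and began with C exactly at the annotated start stood in 11 of these 61 genes (18%) and in 396 of 17220 windows of all genes (2.3%). The 8 ribosomal protein genes with the longest runs are printed to show what the motif looks like. Each window has 30 bases on the coding strand, 5′ to 3′, and capitals mark the run that begins at the annotated start.
Rpl15, chr14:18270972-18271001, minus strand: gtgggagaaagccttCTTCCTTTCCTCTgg
Rpl28, chr7:4792950-4792979, plus strand: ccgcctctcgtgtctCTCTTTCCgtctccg
Rpl35, chr2:39005117-39005146, minus strand: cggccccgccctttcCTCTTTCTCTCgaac
Rpl38, chr11:114668565-114668594, plus strand: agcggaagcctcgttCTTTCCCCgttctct
Rps6, chr4:86857353-86857382, minus strand: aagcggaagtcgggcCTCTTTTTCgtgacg
Rps10, chr17:27635230-27635259, minus strand: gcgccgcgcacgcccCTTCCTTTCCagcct
Rps15a, chr7:118116133-118116162, minus strand: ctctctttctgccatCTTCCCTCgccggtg
Rps18, chr17:33955651-33955680, minus strand: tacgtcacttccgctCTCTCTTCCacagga
A window without the run says only that these letters do not stand at that annotated start. The runs differed in length from 8 letters in Rpl28, Rpl38 and Rps15a to 13 in Rpl15.

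Library totals ran from 13918321 to 17249898 counts. Srebf2, the gene for SREBP2, stood at 191, 192 and 172 CPM (the share of a library's counts, scaled to a fixed total with TMM factors) in Srebp2WT and at 13.7, 12.7 and 10.7 in Srebp2cKO, a log2 fold change of -3.91 that fits the labels. Foxp3 did not pass (454 ± 11.5 and 435 ± 27.0 CPM, SD, n = 3 each, log2 fold change -0.06, edgeR adjusted p = 0.611), and with the GC trend of all genes removed it had 0.17, again without passing. Of 11932 genes tested with edgeR, 283 rose and 506 fell at a false discovery rate of 0.05 (184 and 570 when scaled by total counts alone), and the median log2 fold change was -0.00.

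Ribosomal protein mRNAs were higher in Srebp2cKO Tregs across most of the family. Of the 81 genes, 77 passed the filter on low counts, and 26 of them (33.8%) rose against 2.37% of all tested genes, while 1 fell against 4.24%. The median log2 fold change of the 77 was 0.29, and 73 were above 0, where 50% of all tested genes were. All 3 Srebp2cKO libraries lay above all 3 Srebp2WT libraries for 49 of the 77 (16% of all tested genes did so), and below for 2, Rpl3 and Rps12 (15.5%). Among 1079 other genes above a level near the low end of the members', with no upper limit, the median was 0.10 and 6.3% rose. Their levels were not matched to the members (median 278 CPM in Srebp2WT, against 460 for the members). The remaining 50 ribosomal protein genes did not pass the test. The count of 26 moved with the libraries: it was 1 without Srebp2WT replicate 1 or 3, 38 without replicate 5, 28 without Srebp2cKO replicate 6, 7 without replicate 7 and 8 without replicate 8. In bulk RNA, a change in the mix of cells and a change of RNA per cell cannot be told apart.

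**Figure D1:**
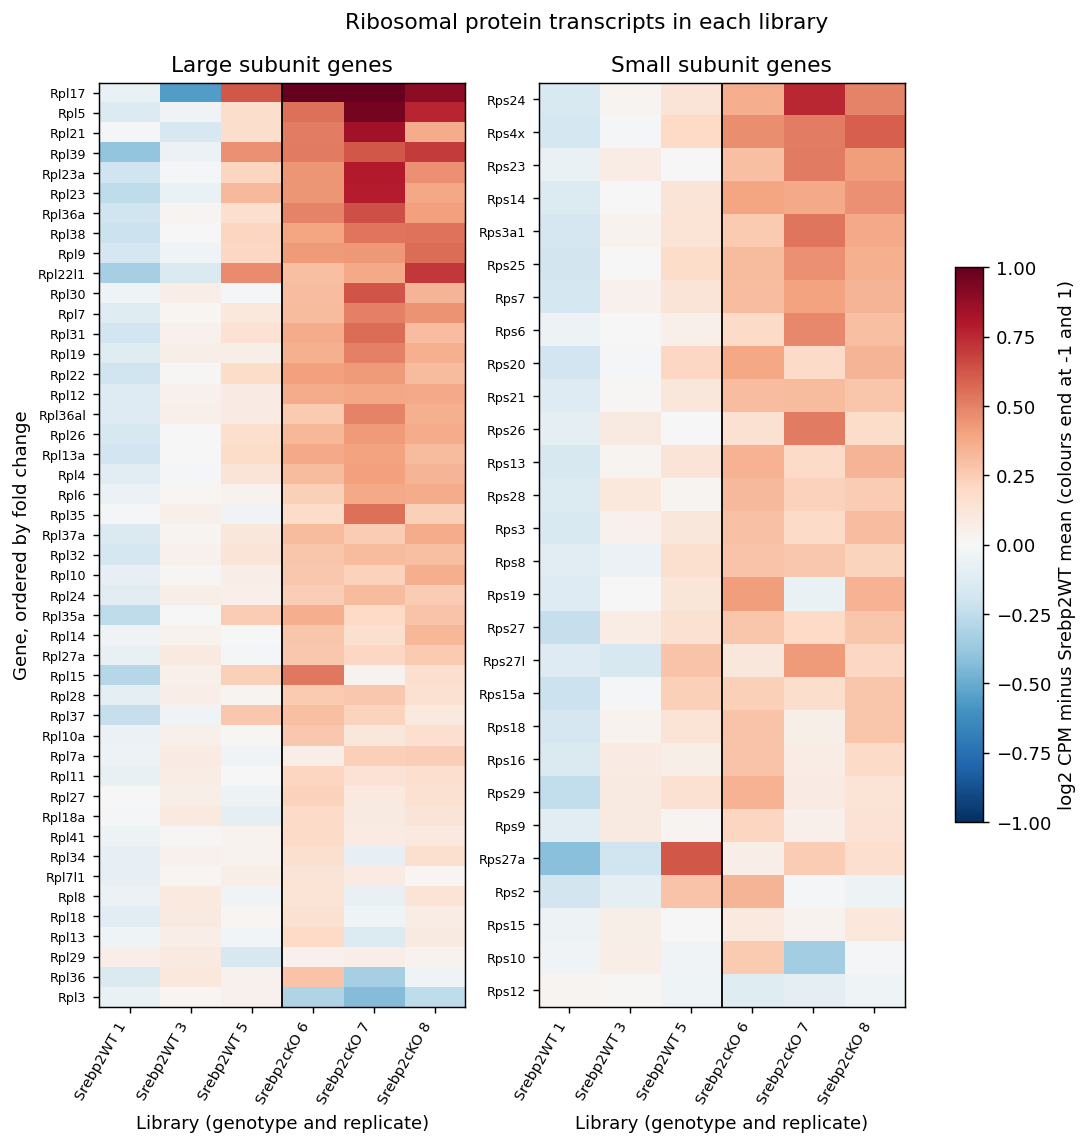
Level of 74 of the 77 tested ribosomal protein genes (rows) in each library (columns), as log2 CPM minus the mean of the Srebp2WT libraries, with colours ending at -1 and 1. Most genes are red in all 3 Srebp2cKO libraries, Srebp2WT replicate 1 holds the lowest value of 62 of the 77, and Rpl3 is the 1 gene in the large subunit panel that is blue in all 3.

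The rise was also seen in the share of all counts. Ribosomal protein genes held 3.66%, 3.98% and 4.23% of the counts in Srebp2WT replicates 1, 3 and 5 and 4.70%, 4.85% and 4.80% in Srebp2cKO replicates 6, 7 and 8. The groups did not overlap, and the exact binomial intervals were narrow, for example 3.65% to 3.67% in replicate 1 (counting error only). The row Rn45s, named for the rRNA precursor, held 9.63% to 11.9% of the counts in Srebp2WT and 6.20% to 11.2% in Srebp2cKO after depletion. Its counts do not tell precursor from mature rRNA. Without it the shares were 4.15%, 4.52% and 4.68% against 5.29%, 5.17% and 5.26%, again without overlap. Srebp2WT replicate 1 was the lowest library for 62 of the 77 genes, and a Srebp2cKO library was the highest for 73.

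**Figure D2:**
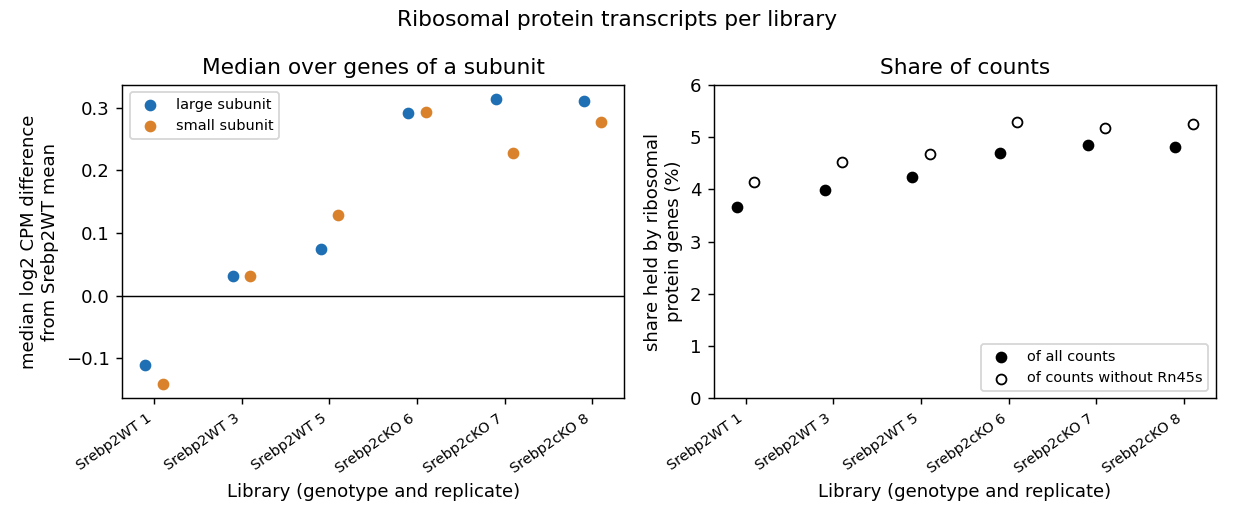
Left, the median over the genes of each subunit of the log2 CPM difference from the Srebp2WT mean, by library, and right, the share of counts held by the 81 genes, with and without Rn45s. The 3 Srebp2cKO libraries lie above the 3 Srebp2WT libraries in both panels, and the share runs from 3.66% to 4.85% of all counts.

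The subunits had similar median shifts and different numbers of calls, a difference that was not tested. In the large subunit 18 of 46 tested genes rose (39.1%) and 1 fell, with a median log2 fold change of 0.30. In the small subunit 8 of 31 rose (25.8%) and 0 fell, with a median of 0.26. At an unadjusted edgeR p under 0.05, 18 small subunit genes were higher and 0 lower, and 34 large subunit genes were higher and 1 lower (14.8% of all tested genes were higher and 14.3% lower). DESeq2 called 27 large and 16 small subunit genes higher, against 5.46% of all genes. The large subunit held 1.17, 1.14 and 1.12 times the counts of the small subunit in Srebp2WT and 1.15, 1.17 and 1.14 times in Srebp2cKO. These ranges overlapped, so no shift in the balance of the subunits was visible beyond the spread of the libraries.

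**Figure D3:**
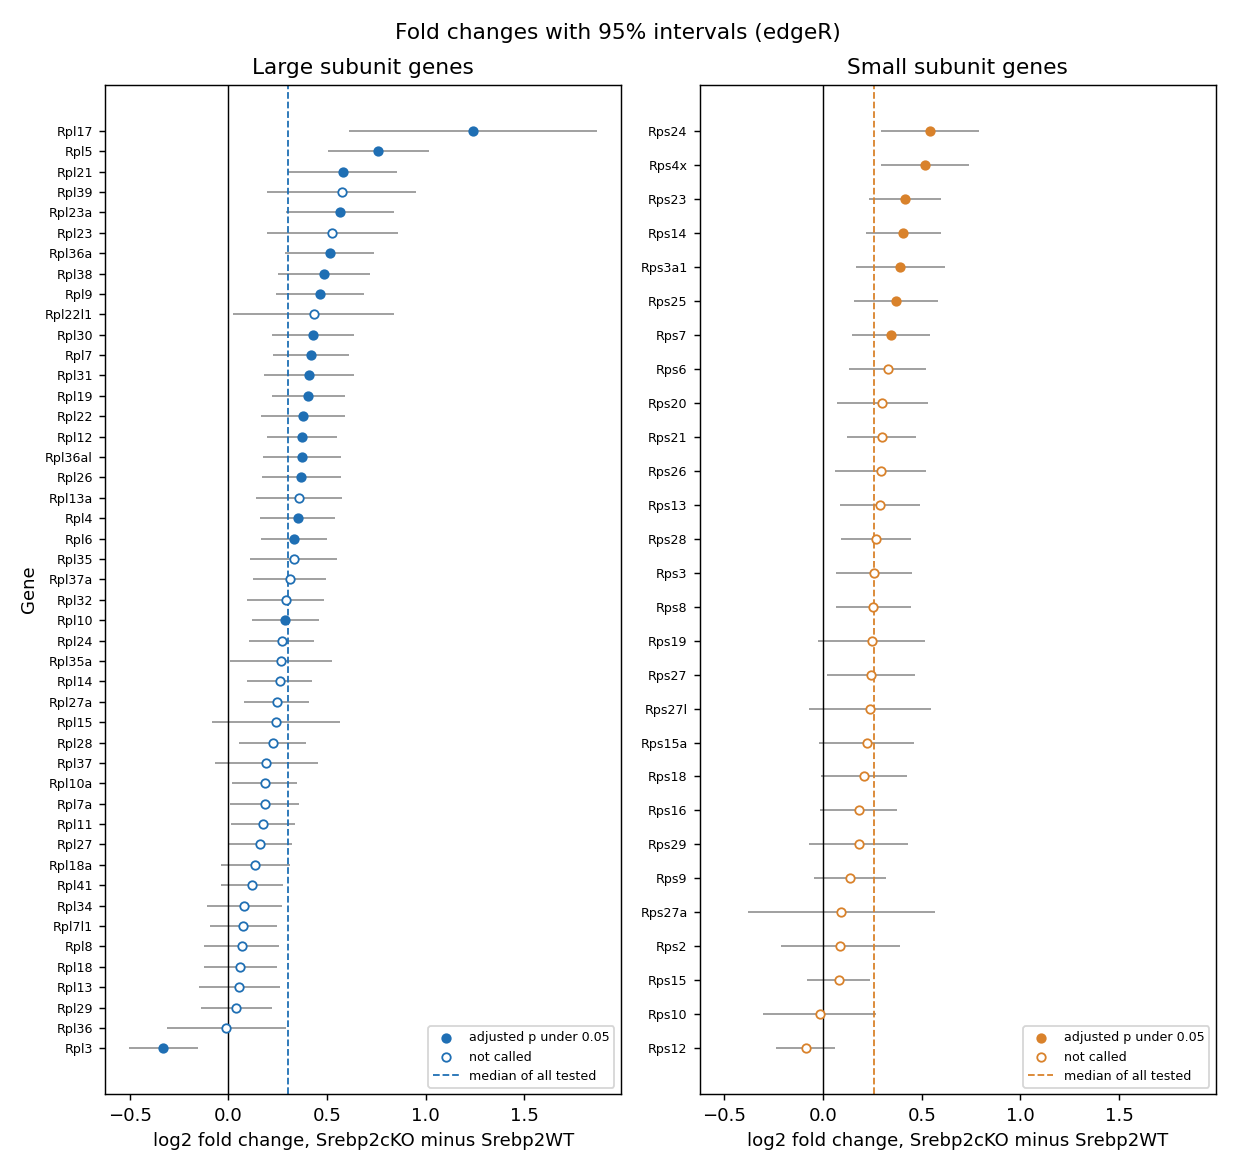
Log2 fold change, Srebp2cKO minus Srebp2WT, with 95% intervals from edgeR for 74 of the 77 tested genes, where filled points passed the false discovery rate of 0.05 and the dashed lines are the medians over all tested genes of a subunit, 0.30 for the large and 0.26 for the small subunit. Rpl17 and Rpl5 lie farthest right, at 1.24 and 0.76, and Rpl3 lies left of 0 at -0.33.

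Rpl5 and Rpl11 carry the 5S rRNA into the large subunit, and when free they bind and inhibit Mdm2. Rpl5 (chr5:107900502-107909005, GRCm38) stood at 822, 883 and 1019.6 CPM in Srebp2WT and at 1323, 1756 and 1537 in Srebp2cKO. The groups were far apart, with a log2 fold change of 0.76 ± 0.12 (SE), 1.69-fold, and an edgeR adjusted p of 0.00638. It was the only one of the 27 called genes that kept its call when any 1 of the 6 libraries was left out. Its partner Rpl11 had 403, 449 and 425 CPM against 495, 470 and 478, without overlap but smaller in size (log2 fold change 0.18, edgeR adjusted p = 0.145). The difference between these partners was not tested. Among 10 genes of the p53 and nucleolar stress response, 0 passed edgeR in either direction (0 higher and 2 lower at an unadjusted p under 0.05), and the median was 0.01. Of all tested genes 2.37% were called higher and 4.24% lower (14.8% and 14.3% at an unadjusted edgeR p under 0.05). With 10 genes, 0 calls is close to these shares. Mdm2 itself had a log2 fold change of 0.13 (edgeR adjusted p = 0.336).

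At the core of the large subunit, Rpl3, Rpl4, Rpl8 and Rpl10 reach towards the peptidyl transferase centre or the exit tunnel. Rpl4 rose (1322, 1417 and 1564 CPM against 1778, 1905 and 1810, log2 fold change 0.35, edgeR adjusted p = 0.0382) and Rpl10 rose by 0.29 with an edgeR adjusted p of 0.0498. Rpl8 did not pass, with 0.07. Rpl3 fell, from 837, 890 and 903 CPM to 711, 648 and 736, a log2 fold change of -0.33 ± 0.080 (SE) with an edgeR adjusted p of 0.0369. The groups did not overlap, but of the 6 fits without 1 library each, only that without Srebp2cKO replicate 6 called it. Rpl3 (chr15:80077791-80091868) lies 2.06 Mb from Srebf2 on the same chromosome, and the part of that position in its level was not tested. The other ribosomal protein genes of chromosome 15 had log2 fold changes of 0.43 (Rpl30, edgeR adjusted p = 0.0274), 0.19 (Rpl37) and 0.07 (Rpl8).

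The genes around the mouth of the nascent peptide tunnel, where chaperones and the secretion machinery dock, were mostly higher. Of 8 such genes, Rpl17, Rpl19, Rpl22, Rpl23a, Rpl26 and Rpl31 passed (75%), and Rpl35 and Rpl39 did not. The median log2 fold change was 0.41, and the groups overlapped in none of the 8. Of all members, 33.8% rose and 49 of 77 lay higher without overlap, against 2.37% and 16% of all tested genes. The difference between these 8 and the other members was not tested. Rpl17 had the largest fold change of all 77, from 98.6, 70.1 and 159 CPM to 359, 223 and 192. These values varied more than 2-fold within Srebp2WT, and the log2 fold change of 1.24 had a 95% interval of 0.61 to 1.87 (edgeR adjusted p = 0.0325). Rpl23a went from 260, 296 and 346 CPM to 406, 518 and 410 (log2 fold change 0.56, edgeR adjusted p = 0.0276). Rpl19 was tighter, at 640, 725 and 723 against 887, 987 and 891 CPM (log2 fold change 0.41, edgeR adjusted p = 0.0230). Rpl39 ranged from 238 to 428 CPM in Srebp2WT and from 450 to 508 in Srebp2cKO, a log2 fold change of 0.57 that missed the threshold (edgeR adjusted p = 0.0685).

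Of the other large subunit genes with the smallest p, Rpl36a (chrX:134585654-134588062) rose from 132, 155 and 171 CPM to 214, 238 and 202, a log2 fold change of 0.51 (edgeR adjusted p = 0.0210). Rpl21 rose by 0.58, Rpl38, which has been tied to translation of selected Hox mRNAs, by 0.48, Rpl9 by 0.46, Rpl30 by 0.43, Rpl7 by 0.42 and Rpl12, a protein of the base of the stalk, by 0.37 on the log2 scale, with edgeR adjusted p from 0.0232 to 0.0274. In each of these the groups did not overlap. Of the 4 members on the X chromosome, Rpl10, Rpl36a and Rps4x passed and Rpl39 did not, with a median of 0.52. Of all members 33.8% rose, against 2.37% of all tested genes, and the difference from the X chromosome was not tested.

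In the small subunit, Rps4x and Rps24 rose most. Rps4x (chrX:102184941-102189394) stood at 857, 957 and 1114 CPM in Srebp2WT and at 1339, 1385 and 1468 in Srebp2cKO (log2 fold change 0.52, edgeR adjusted p = 0.0194). Rps24 (chr14:24487125-24496959) stood at 1158, 1307 and 1402 against 1652, 2166 and 1809.8 CPM (log2 fold change 0.54, edgeR adjusted p = 0.0238). In both genes all 3 Srebp2cKO libraries lay above all 3 Srebp2WT libraries.

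Along the path of the mRNA, 1 of 5 genes on the entry and decoding side rose (20%), and 2 of 5 on the exit side (40%). Of all members 33.8% rose, against 2.37% of all tested genes, and the difference between the sides was not tested. Of Rps2, Rps3, Rps9, Rps15 and Rps23, which line the entry channel or the decoding centre, only Rps23 rose (699, 770.3 and 729 CPM against 901, 1049.8 and 979, log2 fold change 0.41, edgeR adjusted p = 0.0210), and the median of the 5 was 0.14 (0.23 with the GC trend removed). At the exit and platform, Rps14 (682, 753 and 823 against 987, 977 and 1032 CPM, log2 fold change 0.41) and Rps3a1 (0.39) rose. Rps26 and Rps28 did not pass, and the median of the 5 genes on that list was 0.29 (0.32 with the GC trend removed). With that trend removed, 2 genes of the entry list and 3 of the exit list were called higher. Further calls in the small subunit included Rps25 (0.37) and Rps7 (0.35), while Rps21 at 0.30 (edgeR adjusted p = 0.0503) and Rps6, the substrate of S6 kinase, at 0.33 (edgeR adjusted p = 0.0533) stood just past the threshold.

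**Figure D4:**
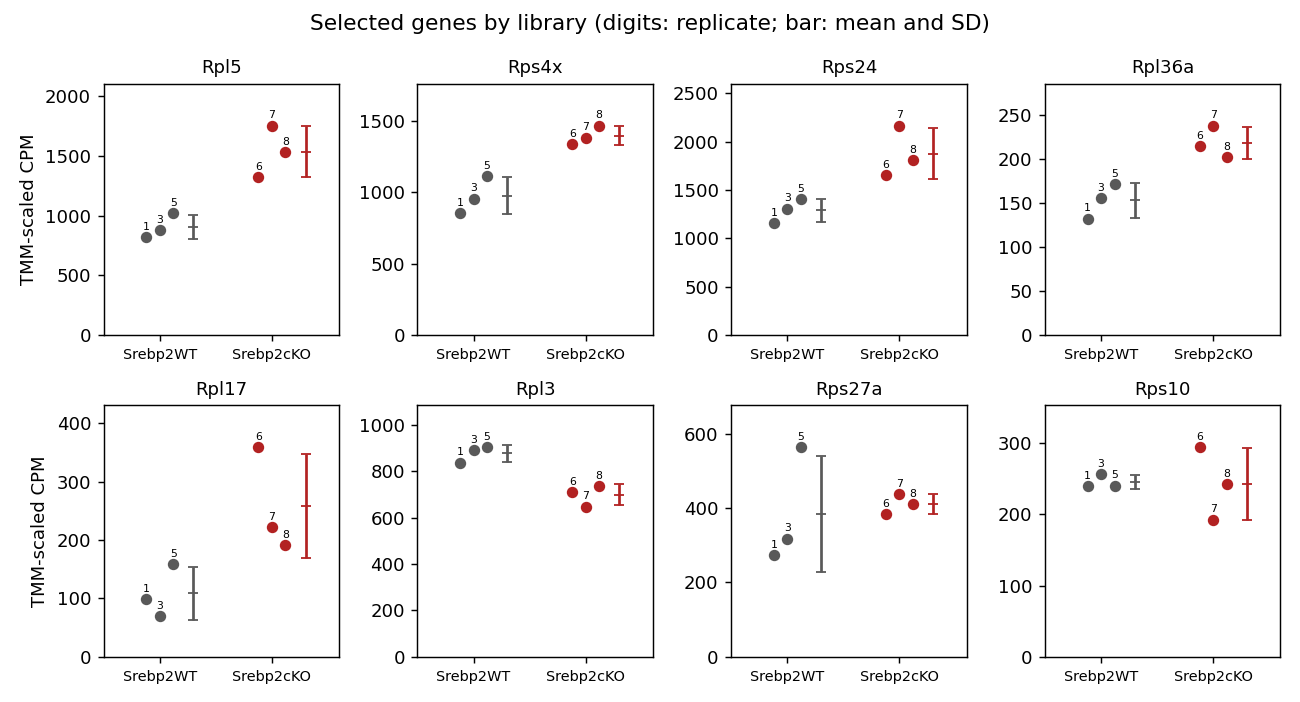
TMM-scaled CPM of 8 genes in each library, with digits giving the replicate and bars the mean and SD of the 3 libraries of a genotype. Rpl5, Rps4x, Rps24, Rpl36a and Rpl17 are higher in every Srebp2cKO library, Rpl3 is lower in every one, and Rps27a and Rps10 overlap.

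Some genes did not move with the rest. Rps27a, which encodes ubiquitin fused to a ribosomal protein, had 274 and 318 CPM in replicates 1 and 3 and 564 in replicate 5 of Srebp2WT, against 384, 437 and 411 in Srebp2cKO, so the groups overlapped (log2 fold change 0.09, edgeR adjusted p = 0.801). Rps10 had 239.7, 257 and 240.0 against 294, 192 and 242 CPM (log2 fold change -0.02). Rpl36 (-0.01) and Rps12 (-0.09) were the others below 0 that did not pass. Both Rps10 (0.12) and Rpl36 (0.25) were above 0 with the GC trend removed. Replicate 7 was the lowest Srebp2cKO library for Rps10, Rpl36, Rps19, Rpl13 and Rpl8.

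Genes whose human counterparts are mutated in Diamond-Blackfan anaemia, a failure of red cell production, were no exception. Of 9 measured, Rpl5, Rps7 and Rps24 rose (33.3%, against 33.8% of all members and 2.37% of all tested genes) and 0 fell. The median was 0.29, the same as that of all members. Rps10, Rps19, Rps26, Rpl11 and Rpl35a were among those that did not pass.

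Paralogs and proteins with other symbols gave a mixed picture. Of the paralog copies, Rpl36al rose (75.1, 84.8 and 86.8 against 98.6, 116.0 and 105 CPM, log2 fold change 0.37, edgeR adjusted p = 0.0366), and Rpl22l1 (0.43), Rps27l (0.24) and Rpl7l1 (0.08) did not pass. The 4 members that failed the filter were all paralogs. Rpl10l and Rpl3l, known from testis and striated muscle, had 0 counts in every library. Rpl39l had 5, 7 and 1 counts in Srebp2WT and 1, 1 and 12 in Srebp2cKO. Rps4l, annotated as a processed pseudogene in GENCODE M21, had 21, 11 and 9 against 3, 2 and 8. The list of cytosolic ribosomal proteins outside the symbol pattern has 7 genes, among them the stalk proteins Rplp0 (0.07), Rplp1 (-0.07) and Rplp2 (-0.10), Rpsa (0.06), Fau (0.25) and Rack1, listed as Gnb2l1 (0.13). Of the 7, 0 passed edgeR (1 higher and 0 lower at an unadjusted p under 0.05), and the median was 0.07. After removal of the GC trend, Fau was called (0.42, edgeR adjusted p = 0.0280), Rplp1 and Rplp2 were above 0 (0.10 and 0.01) and the median was 0.16. The 77 mitochondrial ribosomal protein genes had a median of 0.04, with 0 higher and 1 lower. Of all tested genes 2.37% were called higher and 4.24% lower.

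Per kilobase of transcript in Srebp2WT, the highest members were Rps27 (2313 CPM per kb), Rps29 (1470) and Rps15 (1446), none of which passed the test. The lowest tested ones were Rps27l (43.9), Rpl7l1 (61.2) and Rps20 (103). The Rps20 value was divided by the length of an annotated transcript of 3706 bases. Over the 77 genes the log2 fold change was weakly related to the mean log2 CPM (Pearson 0.09, Spearman 0.19, a description over genes of the same libraries).

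Other mRNAs known to begin with a TOP motif were also looked at. Of 16 such genes for translation factors and related proteins, 6 rose (37.5%, against 2.37% of all tested genes) and 0 fell, with a median log2 fold change of 0.31. They included Hnrnpa1 (0.35, edgeR adjusted p = 0.0214), the initiation factor subunit Eif3e (0.44) and the elongation factor Eef1b2 (0.49). Of 8 tested TOP host genes of small nucleolar RNAs, 3 rose (37.5%), and the median was 0.40. Rack1 is on this list and also on that of proteins outside the symbol pattern. These 3 were Gas5 (0.66, edgeR adjusted p = 0.0291), Snhg8 (0.59) and Snhg1 (0.46). With the GC trend removed, Eif3e (0.20, edgeR adjusted p = 0.0749) and Snhg1 (0.23, edgeR adjusted p = 0.237) lost their calls, and the medians of these lists were 0.21 and 0.27. Ribosomal protein genes that hold small nucleolar RNA genes had 11 of 28 higher (39.3%, median 0.30), and those without had 15 of 49 higher (30.6%, median 0.27). Both shares were near the 33.8% of all members, and the difference was not tested.

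Members with and without these letters at the start had similar medians. Those with a run of at least 5 pyrimidines from a C at the annotated start had a median log2 fold change of 0.24, and the others with a window had 0.29. A run of at least 8 pyrimidines near the start stood in 52.5% of the members' windows and 22.5% of all windows. The ETS core CCGGAAG, on either strand, stood in 37.7% of the members' windows and 11.7% of all (median 0.31 with it and 0.27 without), and AAGATGGC, a core of the YY1 motif, in 8.2% and 3.3%. These are matches of letters, not binding sites.

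Genes that act in or upstream of ribosome synthesis had a smaller share of calls than the members, a difference that was not tested. Of 18 tested, 11.1% rose, against 33.8% of the members and 2.37% of all tested genes. Dkc1 (0.46, edgeR adjusted p = 0.0317) and Nop58 (0.38, edgeR adjusted p = 0.0438), parts of the small nucleolar RNA machinery, rose and 0 fell, with a median of 0.16. At an unadjusted edgeR p under 0.05, 9 were higher and 2 lower (14.8% and 14.3% of all tested genes). Nucleolin, Ncl, had 0.46 and missed the threshold (edgeR adjusted p = 0.0539). Myc was at 0.26 and Mtor at -0.26, and neither passed. Under removal of the GC trend, Nop58 lost its call (0.16, edgeR adjusted p = 0.164), Myc gained one (0.47, edgeR adjusted p = 0.0182), 4 genes were called and the median was 0.09.

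Genes of the resting and effector states of Tregs shifted in opposite directions. Of 11 resting genes 5 rose (against 2.37% of all tested genes), among them Bcl2 (0.52), Foxp1 (0.38) and Klf2 (0.46), with a median of 0.43. Of 13 effector genes 7 fell (against 4.24%), among them Klrg1 (-2.93), Pdcd1 (-1.07) and Tigit (-1.66), with a median of -0.57. Ctla4 (0.23, edgeR adjusted p = 0.0897) and Irf4 (0.12) were the 2 effector genes above 0, and neither passed. Markers of other cells shifted too. The summed CPM of 6 B cell markers was 56.4 to 79.4 in Srebp2WT and 25.8 to 34.5 in Srebp2cKO, with Ms4a1 at no more than 2 counts in any library. The 6 myeloid markers summed to 53.9 to 88.2 and 37.1 to 43.0, with Lyz2 at no more than 5 counts. That fall was carried by Cybb (60.7 to 33.1 CPM), while Itgam (0.96 to 2.03 CPM) and Cd68 had higher means in Srebp2cKO. The 3 natural killer markers summed to 1.55 to 2.70 and 0.65 to 0.83, with Ncr1 and Klra8 at 0. The 2 CD8 T cell markers summed to 7.01 to 7.59 and 8.70 to 10.3, and the 6 Treg markers to 4115 to 4335 and 4037 to 4192. The 5 stromal markers summed to 168 to 181 and 217 to 231, nearly all of it Pecam1 (171 to 224 CPM). Of the others, Col1a1 had a lower mean in Srebp2cKO (0.96 to 0.57 CPM) and Col1a2 a higher one (0.26 to 0.60 CPM). Cdh5 had at most 1 count in any library. The 5 erythroid markers summed to at most 0.70 and the 3 platelet markers to at most 2.44 in any library, with Pf4, Ppbp and the stromal Pdpn at 0. The part of these shifts in the rise of the ribosomal protein genes was not tested.

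Fold changes of the members followed the GC content of their transcripts, as those of all genes did. Across the 77 genes Pearson's r was -0.46 and Spearman's rho -0.52, and over 11459 genes Spearman's rho was -0.51 (descriptions, since genes share the libraries). Per 10 points of GC, log2 CPM of the members sloped by 0.19 (replicate 1), 0.19 (replicate 3) and -0.04 (replicate 5) among Srebp2WT libraries, and by 0.01 (replicate 6), -0.23 (replicate 7) and -0.12 (replicate 8) among those of Srebp2cKO. The 26 members of lowest GC had a median log2 fold change of 0.39 and 13 calls, and the 26 of highest GC had 0.20 and 6 calls. With the GC trend of all genes removed from each library, these medians were 0.30 and 0.30. Then 40 members rose (27 large and 13 small, against 1.87% of all genes), of which 24 were among the original 26. Rpl22 and Rps25 lost the call, and Rpl11 gained it (0.23, edgeR adjusted p = 0.0485). The member median stayed at 0.29. With the GC and length trends both removed, 23 members rose (17 large and 6 small, against 1.9% of all genes), and the member median was 0.22.

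**Figure D5:**
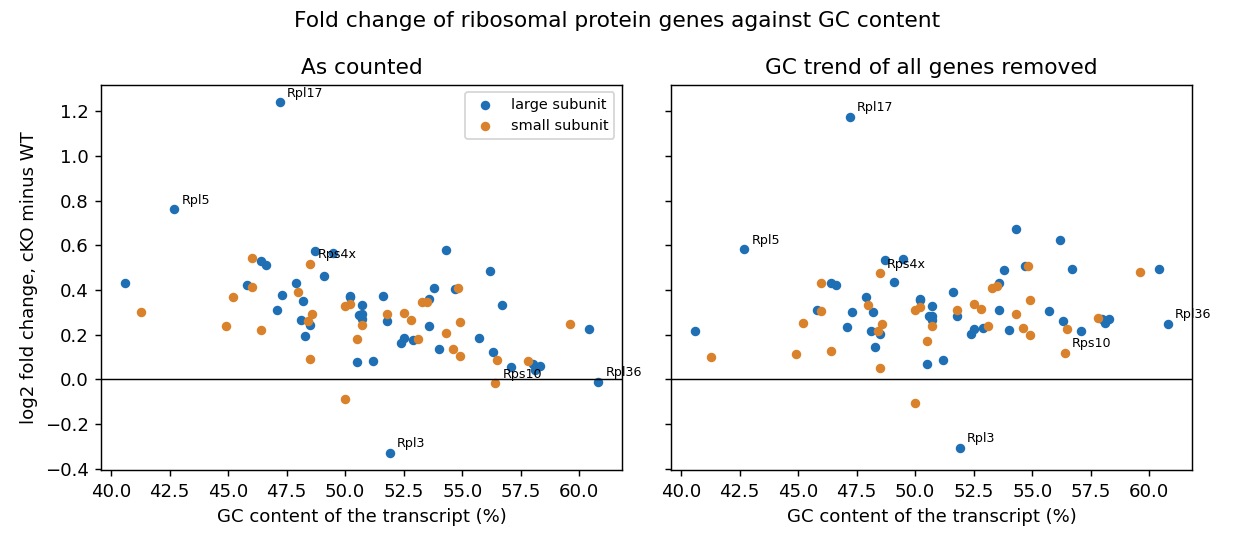
Log2 fold change of the 77 tested genes against the GC content of the transcript, as counted (left) and with the GC trend of all genes removed (right). The downward trend on the left (Pearson -0.46) is close to flat on the right (0.05), and nearly all points stay above 0 in both panels.

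Ribosomal protein genes have many processed pseudogenes, so reads can fit more than 1 place, and the sources used here do not give how such reads were counted. In 50 of the 77 genes over 50% of the 50-base words of the transcript also occur in transcripts of other genes, and 20 of these 50 rose (40%) and 1 fell (median 0.29). Of the 27 that shared at most 50%, 6 rose (22.2%), all 27 were above 0 and the median was 0.26. Of all members 33.8% rose. Among all tested genes 2.37% rose and 50% were above 0. The difference between these kinds of members was not tested. Levels of the first kind are uncertain, and they include Rpl5 (93.8% shared), Rpl3 (85.6%), Rpl36a (85.5%), Rpl17 (78.7%) and Rps4x (72.2%), whereas Rps14 (38.1%) and Rps24 (19.1%) shared less. The counts of Rps27 and its near-copy Rps27rt differed by only 24 to 41 in each library, and those of Rpl34 and Rpl34-ps1 by 7 to 16, so neither pair holds independent values. The pseudogene row Rpl14-ps1 was called higher (log2 fold change 0.51, edgeR adjusted p = 0.0238), while Rpl14 was at 0.26 and not called.

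Single calls depended on which libraries entered, while the median shift moved less. Without Srebp2WT replicate 1 or replicate 3, 1 member was called higher (0.266% and 0.241% of all genes), without Srebp2cKO replicate 7 there were 7 (0.619%) and without replicate 8 there were 8 (0.793%). Leaving out Srebp2WT replicate 5 raised the count to 38 (3.48%), and leaving out Srebp2cKO replicate 6 gave 28 (5.8%). The median of the members ranged from 0.22 to 0.35 over these 6 fits, in which the medians of all genes were -0.01 to 0.00. With the GC trend removed as well, members called higher numbered 8 (0.545% of all genes) without replicate 1, 4 (0.441%) without 3, 44 (1.98%) without 5, 22 (1.11%) without 6, 14 (0.688%) without 7 and 21 (1.18%) without 8. With all libraries, 44 members were higher at a false discovery rate of 0.1 (7.22% of all genes), 20 with total counts alone (1.54%) and 19 with the length trend removed (2.53%).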

How the data were processed

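Total RNA was made into libraries with a KAPA HyperPrep kit that removes ribosomal RNA, per the labels' protocols. The authors deposited whole-number counts per gene symbol for 6 libraries. The submitters' processing notes name HISAT2 2.2.1, mm10 and Cell Ranger with no role. The sources used here do not give the counting tool, annotation, strand setting or treatment of reads that fit several places, and overlapping, antisense and near-identical genes are therefore uncertain.

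Members were found by symbol. Genes were kept by filterByExpr (11932), scaled with TMM factors and tested two-sided on all 6 libraries with edgeR 4.0.16 in R 4.3.3 (quasi-likelihood F test, no covariate). Benjamini-Hochberg adjustment ran over all tested genes, and genes were called at a false discovery rate of 0.05. Levels are TMM-scaled CPM, and marker sums are CPM without TMM factors. The scripts were tested on simulated data. Pairs of libraries within a genotype differed by more than counting noise (chi-square of 6.71 to 34.8 per degree of freedom). Each was treated as 1 replicate, though such a difference can also be technical.

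Transcript length, GC and shared 50-base words used the shortest complete principal coding transcript of GENCODE M21 (GRCm38), available for 11459 tested genes and all tested members. Where a list symbol was not in the table, a RefSeq synonym was used, and Rpl26l1 had none there. Start windows were 250 bases before to 50 after RefSeq starts. Members, lists and tests were chosen with earlier results of these data known, and the lists come from textbook knowledge. Named genes were the 10 members of each subunit with the smallest p, any called lower, the 3 highest and 3 lowest per kb, those failing the filter, the genes of the 5S, paralog and outside-pattern lists, up to 3 of each other list, and Srebf2 and Foxp3. Other named members and list genes were chosen after their values were seen. A few genes are not reported or drawn here by name, though counts and medians include them. Alternatives were scaling by RLE, upper quartile or total counts, TMM without the members, DESeq2 1.42.0, limma-voom (limma 3.58.1), no filter, at least 1 CPM in 3 libraries, a false discovery rate of 0.1, removal of GC or length trends or both (loess offsets, span 0.3) and leaving out each library. Removal of the GC trend together with leaving out a library was added after seeing the data.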

Additional observations from a re-analysis of the deposited data

How the results depend on the processing

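Under every scaling, tool, filter, threshold and trend correction tried with all 6 libraries, the median log2 fold change of the members stayed between 0.22 and 0.29, and Rpl3 was the 1 member called lower. Counts of calls moved more. With DESeq2, 1404 genes passed in either direction, and 43 members, 16 of them of the small subunit, were called higher. With no filter 1205 genes passed, and at a false discovery rate of 0.1 it was 1893 genes, with 44 members higher (28 large and 16 small). With the GC trend removed 40 members rose (13 small), and with total counts alone or the length trend removed 5 small subunit genes rose. The causes of these differences were not tested.

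Leaving out 1 library at a time, the genes called ranged from 167 to 1487, members higher from 1 to 38, large subunit genes higher from 1 to 24, small subunit genes higher from 0 to 14 and members lower from 0 to 1. With the GC trend also removed, an alternative added after seeing the data, leaving out replicates 1, 3, 5, 6, 7 and 8 in turn gave 278, 264, 752, 394, 320 and 562 genes called, 8, 4, 44, 22, 14 and 21 members higher (5, 2, 28, 14, 10 and 14 large and 3, 2, 16, 8, 4 and 7 small) and 1, 0, 0, 0, 0 and 1 lower. No median of the members or of a subunit, and none of the called members, changed sign in these settings. Foxp3, Rpl13, Rpl29, Rpl36, Rps2, Rps10, Rps20 and Rps27a, which were not called, changed sign in at least 1. No paired analysis was possible because the genotypes share no replicate numbers. With 3 libraries a genotype, an exact permutation test of 1 value could not go below p = 0.1, and 50 members that did not pass are not shown to be unchanged.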
